A study of Mus with 16 samples.

Results

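The 6 transcripts described here are those listed for the subunits of respiratory complexes III, IV and V that the mouse mitochondrial genome encodes. They were taken by their Ensembl transcript IDs as mt-Co1 (ENSMUST00000082402), mt-Co2 (ENSMUST00000082405), mt-Atp8 (ENSMUST00000082407), mt-Atp6 (ENSMUST00000082408), mt-Co3 (ENSMUST00000082409) and mt-Cytb (ENSMUST00000082421), and all 6 were found among the 116747 transcripts listed in each library. Their listed lengths of 1545, 684, 204, 681, 784 and 1144 bases equal those of COX1, COX2, ATP8, ATP6, COX3 and CYTB in the RefSeq annotation of GRCm38.p6. Each of these lengths belongs to 1 mitochondrial gene in that annotation. The genes lie on chromosome MT at 5328 to 6872 (mt-Co1), 7013 to 7696 (mt-Co2), 7766 to 7969 (mt-Atp8), 7927 to 8607 (mt-Atp6), 8607 to 9390 (mt-Co3) and 14145 to 15288 (mt-Cytb). All 6 passed the filter on low counts.

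The study profiled total RNA, depleted of ribosomal RNA, from mouse epiblast stem cells, which are pluripotent cells of a primed state. The cells were F1 hybrids that share C57Bl/6J as 1 parent, and the other parent was a wild-derived inbred strain. Each cross has 4 libraries, named here by its number in the title after CastB6, MolfB6, PwkB6 or SpretB6. For growth and treatment the labels only cite an earlier publication, not used here, and they give no sex or genotype beyond the cross. The labels do not state separate cultures or animals either, so p-values measure only how these libraries vary, possibly for technical reasons. The files carry no gene names, so markers of the cell type could not be looked up.

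The mitochondrial genome is transcribed as long precursor RNAs, which are cut at the transfer RNAs into single messages. Complex III passes electrons from ubiquinol to cytochrome c, complex IV passes them on to oxygen, and complex V makes ATP from the proton gradient. Mitochondrial DNA is inherited from the mother. The labels do not say which strain was the mother, so the strain of the mitochondrial genome in each cross is not known here. Whether reads that carry a strain variant were counted less well was not tested.

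Library totals ran from 42596559 to 72364991 estimated counts, which are reads assigned to transcripts and divided where they match several. TPM is the level relative to all transcripts of a library, per base of effective length. The median shortening from full to effective length was 146.6 to 155.8 bases over transcripts longer than 2000 bases.

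The 6 transcripts were among the most abundant in these cells, apart from mt-Co2. Together they held 3.27% ± 0.52 of a library's estimated counts (SD, n = 16). The lowest share was 2.42%, in PwkB6 6, and the highest 4.1%, in MolfB6 2. By mean TPM over the 16 libraries, mt-Atp8 stood at rank 2 of all listed transcripts, mt-Co1 at 3, mt-Atp6 at 4, mt-Co3 at 7, mt-Cytb at 12 and mt-Co2 at 206. In TPM the order mt-Co1 over mt-Co3 over mt-Cytb over mt-Co2 held in 16 of 16 libraries. By TPM the places of mt-Co1 and mt-Atp6 were not fixed, with mt-Co1 the higher in 9 libraries and mt-Atp6 in 7. In MolfB6, mt-Co1 was the higher by TPM in 4 of 4 libraries, and in CastB6 in 1 of 4. These places rest on the length correction. Per base of full length, mt-Atp6 was above mt-Co1 in only 2 of 16 libraries. On that basis mt-Atp8 had 0.6 to 0.829 times the estimated counts of mt-Co1, so it was the lower in every library. Reads of mt-Atp6 may also be divided with a transcript of equal length, described below.

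**Figure D1:**
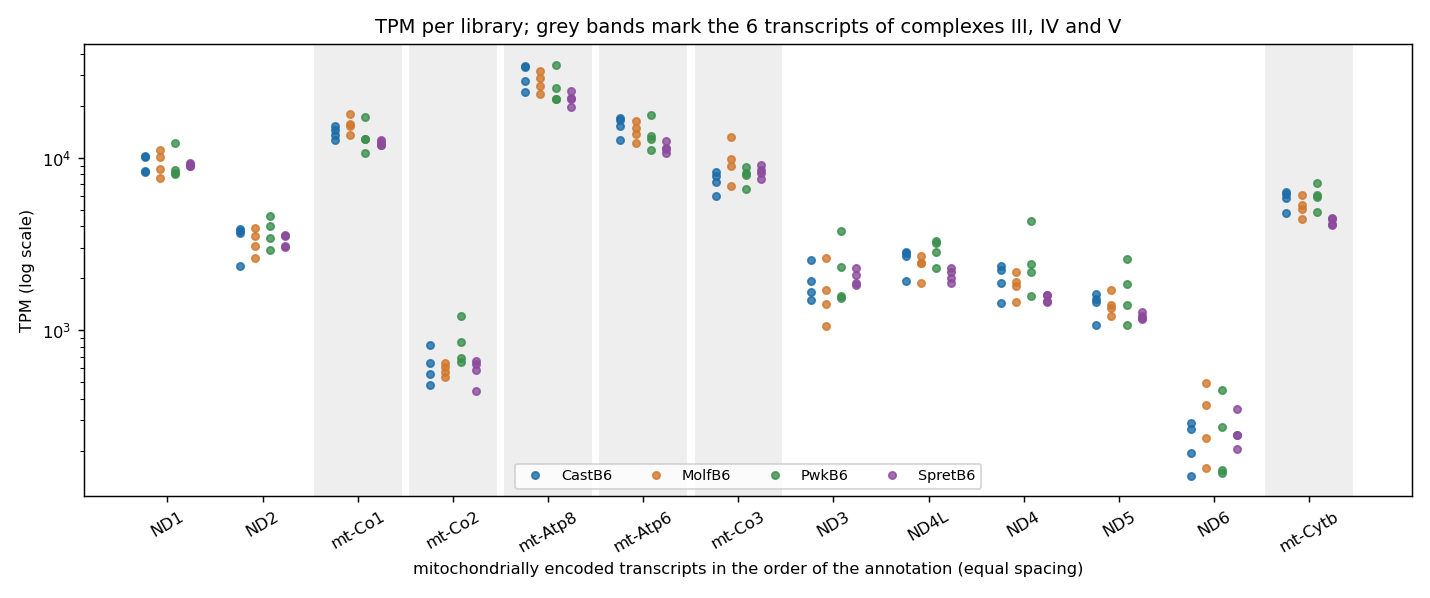
TPM on a log scale for the 13 listed messages of the mitochondrial genome in annotation order, 1 point per library and 1 colour per cross, with grey bands on the 6 transcripts described here. mt-Co2 lies at 442 to 1202 TPM while its neighbours mt-Co1 and mt-Atp8 start at 10669 and 19754 TPM.

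No member was called different between crosses by the test across all transcripts. The joint edgeR quasi-likelihood test called 0 of the 6 among the 4 crosses, where 9.73% of the 56721 tested transcripts were called at a Benjamini-Hochberg adjusted p below 0.05. The lowest joint adjusted p was 0.22, for mt-Cytb. For pairs of crosses, the share of all tested transcripts called was 2.76% for CastB6 over MolfB6, 3.76% for CastB6 over PwkB6 and 6.05% for CastB6 over SpretB6. It was 1.2% for MolfB6 over PwkB6, 5.53% for MolfB6 over SpretB6 and 5.5% for PwkB6 over SpretB6. Among the members edgeR called 0 of 6 in every pair, limma voom also 0 in every pair, and DESeq2 1, which was mt-Cytb in CastB6 over SpretB6. In that pair DESeq2 called 6256 of all transcripts, against 3430 by edgeR. With so few members, 0 calls is close to what these shares give.

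The differences that came nearest lay between CastB6 and SpretB6. At an unadjusted edgeR p below 0.05 there were 3 members in that pair, mt-Cytb, mt-Atp6 and mt-Atp8, and 18.4% of all tested transcripts. PwkB6 over SpretB6 had 1 such member, mt-Co2, where 18.7% of all tested transcripts were below 0.05. The joint test had 0, where 24% of all tested transcripts were below 0.05. CastB6 over MolfB6 had 0 (14% of all tested), CastB6 over PwkB6 0 (19.1%), MolfB6 over PwkB6 0 (12%) and MolfB6 over SpretB6 0 (17.1%). The median log2 fold change of the 6 members in CastB6 over SpretB6 was 0.42, against -0.03 over all tested transcripts. In MolfB6 over SpretB6 it was 0.33, against 0.01 over all, with 6 of 6 members positive and 29025 of the 56721 tested transcripts. Both comparisons share the SpretB6 libraries. The members are not independent either, so these counts and medians may repeat 1 shared signal. mt-Atp6 and mt-Atp8 lie on 1 messenger RNA, and their log2 CPM correlated at a Pearson r of 0.993 over the 16 libraries. The r of mt-Cytb was 0.932 with mt-Atp6 and 0.911 with mt-Atp8. Over all 36 member and pair combinations, the 95% intervals ran from 0.552-fold to 2.04-fold.

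**Figure D2:**
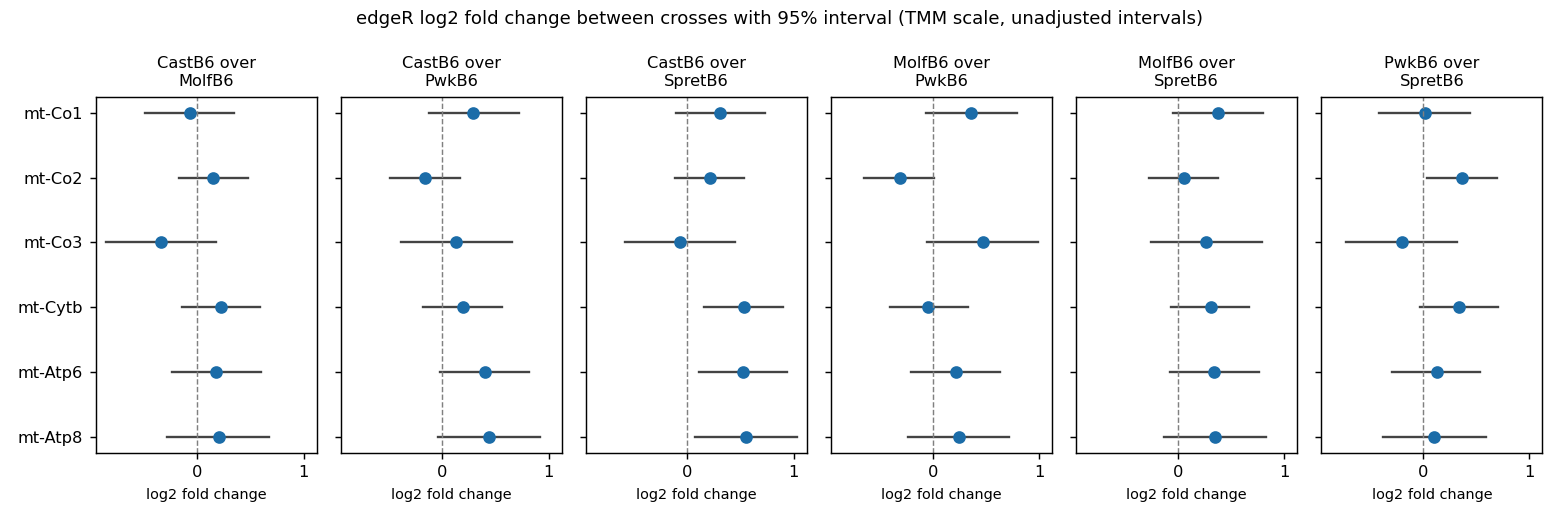
The edgeR log2 fold change of each member for the 6 pairs of crosses, the first cross over the second, with its unadjusted 95% interval. The intervals of mt-Cytb, mt-Atp6 and mt-Atp8 in CastB6 over SpretB6 and of mt-Co2 in PwkB6 over SpretB6 lie above 0, and the other 32 include 0.

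SpretB6 had the lowest mean TPM for 5 of the 6 members, the exception being mt-Co3, whose lowest mean was in CastB6. It was also the least variable cross for 5 of 6, with coefficients of variation of 3.32% to 16.7% over the 6. PwkB6 was the most variable for 5 of 6, with 11.9% to 29.6% over the 6. SpretB6 was also the least variable cross for each of the 7 other mitochondrial messages, those of complex I, from 1.68% (ND1) to 23.5% (ND6). Among these, PwkB6 was the most variable for ND1, ND3, ND4, ND5 and ND6, and CastB6 for ND2 and ND4L. How often such orders of means or spreads occur over all tested transcripts was not examined. These spreads were not tested.

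Complex IV, cytochrome c oxidase, has its catalytic core in the products of mt-Co1, mt-Co2 and mt-Co3. mt-Co1 encodes the subunit with the haem groups and the copper centre where oxygen is reduced. Its TPM was 15352, 13524, 14513 and 12739 in CastB6 1, 3, 5 and 6, and 15368, 15620, 13542 and 17896 in MolfB6 1, 2, 3 and 6. It was 12821, 12808, 17239 and 10669 in PwkB6 1, 3, 5 and 6, and 11840, 12635, 11816 and 12366 in SpretB6 1, 3, 5 and 6. The CastB6 and the MolfB6 libraries all lay above the SpretB6 libraries, while PwkB6 spanned the whole range, from the lowest library of the 16 to the second highest. Mean TPM with its SD over 4 libraries was 14032 ± 1141 for CastB6, 15607 ± 1785 for MolfB6, 13384 ± 2762 for PwkB6 and 12164 ± 404 for SpretB6. The largest of its 6 pair differences was MolfB6 over SpretB6, with a log2 fold change of 0.38 ± 0.20 (SE, with an edgeR adjusted p of 0.366).

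mt-Co2 encodes the subunit that takes electrons from cytochrome c through its own copper centre. Its TPM was 479, 645, 560 and 822 in CastB6 1, 3, 5 and 6, and 643, 615, 572 and 535 in MolfB6 1, 2, 3 and 6. It was 853, 691, 650 and 1202 in PwkB6 1, 3, 5 and 6, and 635, 659, 586 and 442 in SpretB6 1, 3, 5 and 6. PwkB6 6 was the highest library of the 16, and all 4 PwkB6 libraries lay above the MolfB6 libraries. Mean TPM with its SD over 4 libraries was 627 ± 147 for CastB6, 591 ± 47.4 for MolfB6, 849 ± 251 for PwkB6 and 580 ± 97 for SpretB6. PwkB6 over SpretB6 had a log2 fold change of 0.37 ± 0.15 (SE, with an edgeR adjusted p of 0.203), and MolfB6 over PwkB6 one of -0.31 ± 0.15 (SE, with an edgeR adjusted p of 0.44).

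The level of mt-Co2 relative to its partner subunit was low in every library. Its TPM was 0.0299 to 0.113 of that of mt-Co1, with a median of 0.045, although both messages derive from the same strand and lie next to each other but for transfer RNA genes. It had 8937 to 29903 estimated counts per library, so counting error is small beside these ratios. As for each of the 6 members, its estimates were not whole numbers in any of the 16 libraries, so some reads were divided with other transcripts. How many of its reads were assigned elsewhere was not tested. The other 114 listed transcripts of 684 bases reach at most 282 TPM on average. Transcripts of other lengths, such as shortened copies, were not searched.

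mt-Co3 encodes the third large subunit, which stabilises the core. Its TPM was 7860, 8266, 7266 and 5989 in CastB6 1, 3, 5 and 6, and 6849, 13117, 8932 and 9828 in MolfB6 1, 2, 3 and 6. It was 8187, 8856, 7966 and 6613 in PwkB6 1, 3, 5 and 6, and 7567, 8154, 8458 and 9064 in SpretB6 1, 3, 5 and 6. All pairs of crosses overlapped, and MolfB6 2 was the highest of the 16. Mean TPM with its SD over 4 libraries was 7345 ± 993 for CastB6, 9682 ± 2608 for MolfB6, 7905 ± 941 for PwkB6 and 8311 ± 624 for SpretB6. The largest pair difference, MolfB6 over PwkB6, was 0.47 ± 0.24 on the log2 scale (SE, with an edgeR adjusted p of 0.481). Without MolfB6 2, MolfB6 over PwkB6 was 0.179 and MolfB6 over SpretB6 was -0.020, against 0.27 with it.

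Complex III, the cytochrome bc1 complex, has 1 subunit encoded in the mitochondrion, the cytochrome b of mt-Cytb, which carries the haem groups of the ubiquinol cycle. Its TPM was 6354, 4756, 6158 and 5832 in CastB6 1, 3, 5 and 6, and 5067, 5299, 4420 and 6094 in MolfB6 1, 2, 3 and 6. It was 6086, 4854, 7115 and 5929 in PwkB6 1, 3, 5 and 6, and 4134, 4091, 4499 and 4440 in SpretB6 1, 3, 5 and 6. The 4 SpretB6 libraries lay below all CastB6 and PwkB6 libraries and overlapped with MolfB6 through MolfB6 3. Mean TPM with its SD over 4 libraries was 5775 ± 713 for CastB6, 5220 ± 691 for MolfB6, 5996 ± 925 for PwkB6 and 4291 ± 209 for SpretB6. CastB6 over SpretB6 had a log2 fold change of 0.53 ± 0.17 (SE, with an edgeR adjusted p of 0.0926, unadjusted p = 0.00793), a 1.45-fold difference with a 95% interval of 1.12 to 1.87. This was the lowest adjusted p of any member and pair. It passed the threshold under DESeq2 (adjusted p = 0.0271) and with only these crosses in the edgeR fit (adjusted p = 0.02628), and over all alternatives it ran from 0.02628 to 0.2359. PwkB6 over SpretB6 had a log2 fold change of 0.34 ± 0.17 (SE, with an edgeR adjusted p of 0.307).

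Complex V, the ATP synthase, has a pair of subunits encoded in the mitochondrion. mt-Atp6 encodes subunit a, which forms the proton path against the rotor ring. Its TPM was 16967, 12697, 16471 and 15183 in CastB6 1, 3, 5 and 6, and 13747, 14958, 12117 and 16261 in MolfB6 1, 2, 3 and 6. It was 13356, 11106, 17596 and 12843 in PwkB6 1, 3, 5 and 6, and 10677, 11377, 11297 and 12421 in SpretB6 1, 3, 5 and 6. The SpretB6 libraries lay below all CastB6 libraries and overlapped with the other crosses. Mean TPM with its SD over 4 libraries was 15330 ± 1909 for CastB6, 14271 ± 1765 for MolfB6, 13725 ± 2754 for PwkB6 and 11443 ± 723 for SpretB6. CastB6 over SpretB6 had a log2 fold change of 0.52 ± 0.19 (SE, with an edgeR adjusted p of 0.15), which passed the threshold with only these crosses in the fit (adjusted p = 0.04133). Over all alternatives its adjusted p ran from 0.04133 to 0.3584, the highest being that of mt-Atp6 summed with ENSMUST00000188231, a transcript of equal length.

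mt-Atp8 encodes a small membrane subunit of the stator of the same enzyme. Its TPM was 33859, 23917, 33670 and 27960 in CastB6 1, 3, 5 and 6, and 26054, 28843, 23347 and 31717 in MolfB6 1, 2, 3 and 6. It was 25216, 21788, 34712 and 21884 in PwkB6 1, 3, 5 and 6, and 19754, 22134, 21837 and 24289 in SpretB6 1, 3, 5 and 6. All pairs of crosses overlapped. Mean TPM with its SD over 4 libraries was 29852 ± 4811 for CastB6, 27490 ± 3602 for MolfB6, 25900 ± 6087 for PwkB6 and 22004 ± 1855 for SpretB6. CastB6 over SpretB6 had a log2 fold change of 0.55 ± 0.22 (SE, with an edgeR adjusted p of 0.198).

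**Figure D3:**
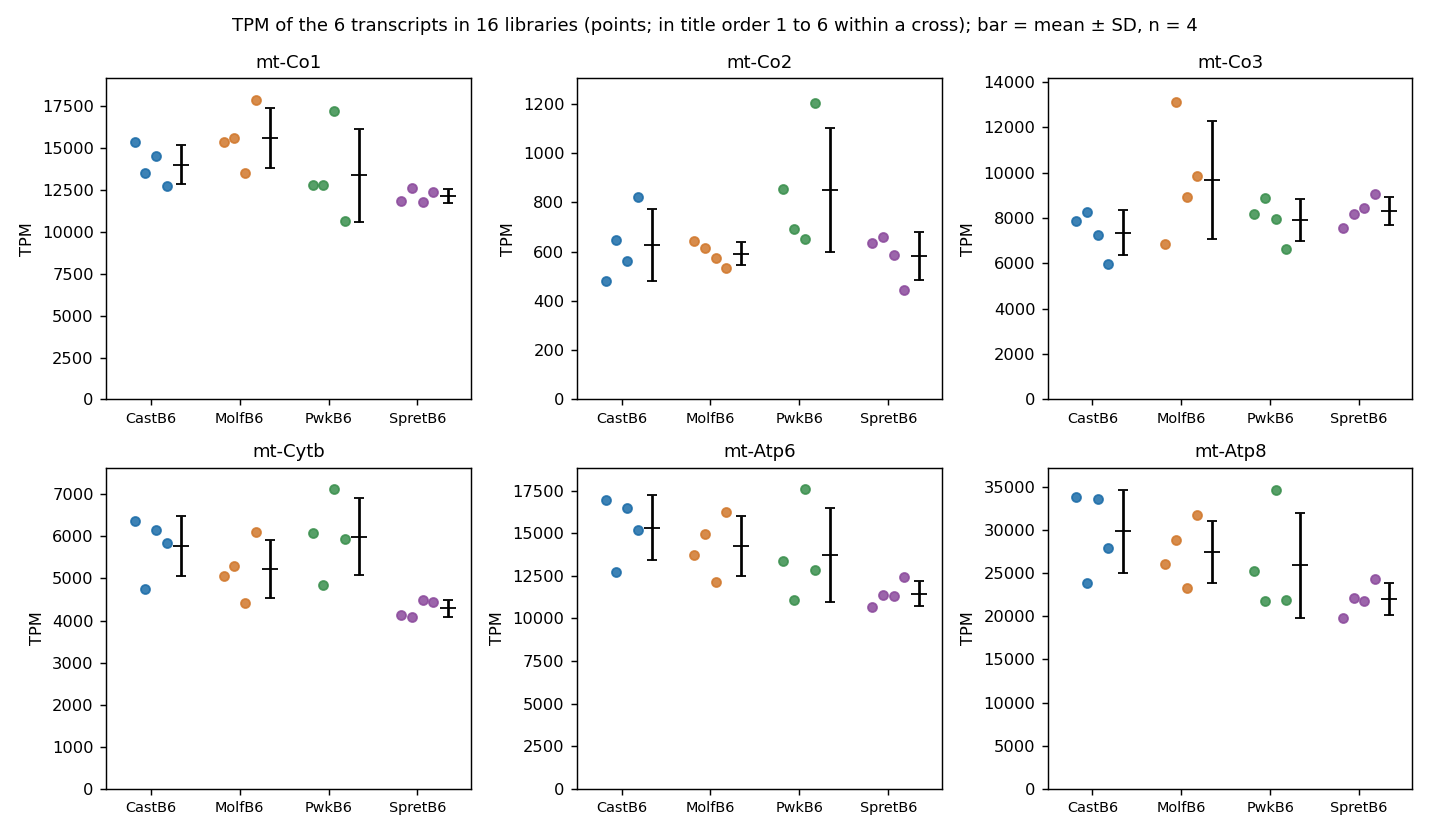
TPM of the 6 transcripts, 1 panel each with its own axis from 0, 1 point per library, and the mean ± SD of each cross (n = 4). The SpretB6 libraries sit close together and low for mt-Cytb (4091 to 4499 TPM), while PwkB6 is spread widely for mt-Co1 (10669 to 17239 TPM).

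By TPM ranges, 3 of the 6 members did not overlap between CastB6 and SpretB6 (mt-Co1, mt-Atp6 and mt-Cytb), where 16.6% of all tested transcripts do not. The count was 1 of 6 for MolfB6 and SpretB6 (mt-Co1, 15.7% of all tested), 1 for PwkB6 and SpretB6 (mt-Cytb, 13.9%) and 1 for MolfB6 and PwkB6 (mt-Co2, 7.98%). It was 0 for CastB6 and MolfB6 (10.6%) and 0 for CastB6 and PwkB6 (11.2%). Members whose levels move together over the libraries are not separate observations in these counts. When each member's crosses were ordered by mean TPM, neighbours in the order overlapped for all 6 members. Fold changes were computed on counts scaled by TMM, and these can differ in sign from TPM means. mt-Cytb and mt-Co3 had higher mean TPM in PwkB6 than in CastB6, while their log2 fold changes of CastB6 over PwkB6 were 0.19 and 0.13.

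The proportions between members varied from library to library, least so for the ATP synthase pair. The ratio of mt-Cytb to mt-Co1 was 0.414, 0.352, 0.424 and 0.458 in CastB6 1, 3, 5 and 6, and 0.33, 0.339, 0.326 and 0.341 in MolfB6 1, 2, 3 and 6. It was 0.475, 0.379, 0.413 and 0.556 in PwkB6 1, 3, 5 and 6, and 0.349, 0.324, 0.381 and 0.359 in SpretB6 1, 3, 5 and 6. All CastB6 and all PwkB6 libraries were above all MolfB6 libraries, and SpretB6 overlapped with each other cross. Of the variance of its log2 values, 62.5% lay between crosses. With 4 libraries per cross, part of the variance lies between crosses even where the crosses do not differ. The omnibus exact permutation test over 2627625 divisions of the libraries gave p = 0.00915, or 0.0549 after Benjamini-Hochberg adjustment over the 6 exact tests made. It therefore missed the threshold, although the same test on ranks passed it (adjusted p = 0.0269). It also passed without CastB6 3 (exact permutation adjusted p = 0.0214) and without PwkB6 3 (exact permutation adjusted p = 0.0129).

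The other ratios to mt-Co1 had less of the variance of their log2 values between crosses, and none passed the threshold. It was 32.3% for mt-Co2, 28.7% for mt-Co3 and 44.4% for mt-Atp6. The ratio of mt-Co2 to mt-Co1 averaged 0.0455 ± 0.0143 for CastB6, 0.0383 ± 0.00576 for MolfB6, 0.0677 ± 0.0322 for PwkB6 and 0.0478 ± 0.00818 for SpretB6 (SD over 4 libraries; exact permutation adjusted p = 0.272). PwkB6 6 had the highest value of the 16, 0.113, against 0.0377 to 0.0666 in the other PwkB6 libraries. The ratio of mt-Co3 to mt-Co1 averaged 0.523 ± 0.0611 for CastB6, 0.624 ± 0.169 for MolfB6, 0.603 ± 0.0987 for PwkB6 and 0.683 ± 0.048 for SpretB6 (SD over 4 libraries; exact permutation adjusted p = 0.296). CastB6 libraries, at 0.47 to 0.611, all lay below the SpretB6 libraries, at 0.639 to 0.733. The ratio of mt-Atp6 to mt-Co1 averaged 1.09 ± 0.109 for CastB6, 0.914 ± 0.0299 for MolfB6, 1.03 ± 0.138 for PwkB6 and 0.941 ± 0.0498 for SpretB6 (SD over 4 libraries; exact permutation adjusted p = 0.194).

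The ratio of mt-Atp8 to mt-Atp6 was the steadiest of the 5, with 8.92% of the variance of its log2 values between crosses. It averaged 1.94 ± 0.0945 for CastB6, 1.93 ± 0.0227 for MolfB6, 1.88 ± 0.124 for PwkB6 and 1.92 ± 0.0482 for SpretB6 (SD over 4 libraries; exact permutation adjusted p = 0.803). Both reading frames lie on 1 messenger RNA and share 43 bases, so a read from the overlap can be assigned to either. The log2 CPM of these transcripts correlated with a Pearson r of 0.993 over the 16 libraries, given as a description, since they share reads and library. The size of the ratio rests on the length correction. mt-Atp8 is 204 bases long, and its effective length was 65.1 to 67.7 bases. Per base of full length, mt-Atp8 had 0.72 to 0.85 times the estimated counts of mt-Atp6 and was the lower in 16 of 16 libraries, whereas by TPM it was the higher in 16 of 16.

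**Figure D4:**
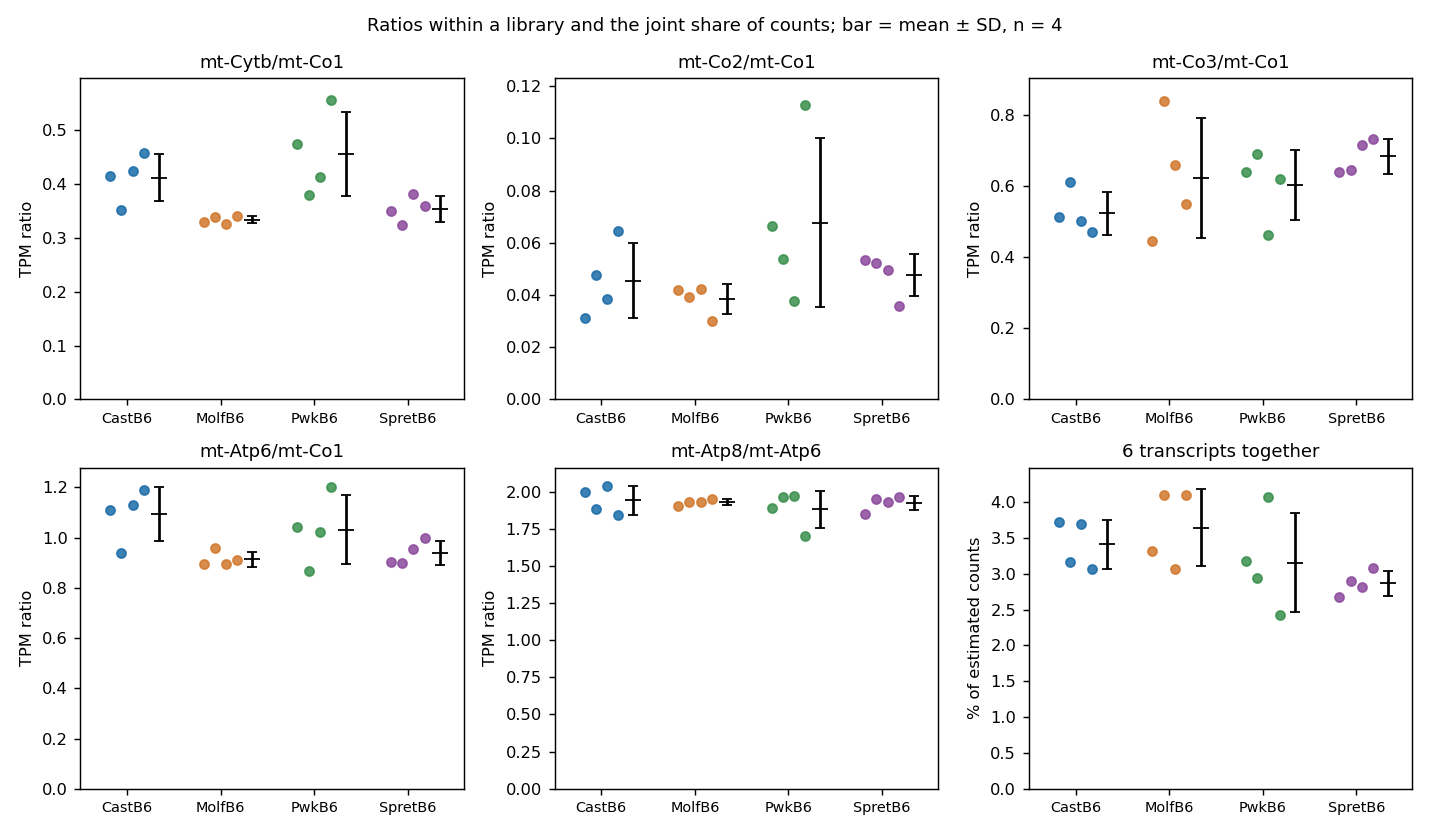
Ratios of TPM within a library for 5 pairs of members, and the percent of estimated counts in all 6, with axes from 0, 1 point per library, and mean ± SD per cross (n = 4). The MolfB6 points for mt-Cytb over mt-Co1 (0.326 to 0.341) lie below all CastB6 and PwkB6 points.

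The share of estimated counts in all 6 members averaged 3.41% ± 0.343 for CastB6, 3.64% ± 0.535 for MolfB6, 3.15% ± 0.69 for PwkB6 and 2.87% ± 0.172 for SpretB6 (SD over 4 libraries). This difference between crosses was not past the threshold (exact permutation adjusted p = 0.272). In these bulk samples, fewer mitochondria or genomes per cell and less RNA per genome cannot be told apart.

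mt-Atp6 has a near twin in the tables. The transcript ENSMUST00000188231.2 is also 681 bases long and averaged 13041 TPM, against 13692 TPM for mt-Atp6, while the next of the 101 other transcripts of that length averaged 490 TPM. The RefSeq annotation lists Gm10925, a pseudogene of 681 bases with mt-Atp6 among its synonyms, on chromosome 1 at 24613971 to 24614651 of GRCm38.p6. The files do not pair this ID with a gene, so whether it is Gm10925 is not known here. The level of mt-Atp6 is therefore uncertain, since reads of a near-identical copy could be divided with it.

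The estimated split lay at different levels in different crosses. This was noticed after the values were seen and is given as a description. mt-Atp6 held 52.6%, 53.3%, 53.8% and 54.9% of the summed TPM of the 2 transcripts in CastB6 1, 3, 5 and 6, and 50%, 50.6%, 49.7% and 49.4% in MolfB6 1, 2, 3 and 6. It held 52.1%, 49.9%, 50.3% and 57.4% in PwkB6 1, 3, 5 and 6, and 48.5%, 48.6%, 48.8% and 49.2% in SpretB6 1, 3, 5 and 6. The SpretB6 libraries lay below all others, the CastB6 libraries lay above all MolfB6 and SpretB6 libraries, and PwkB6 6 was the highest of the 16. Against the sum of the 2 transcripts, mt-Atp8 stood at 1 to 1.1 for CastB6, 0.947 to 0.976 for MolfB6, 0.978 to 0.993 for PwkB6 and 0.897 to 0.962 for SpretB6. CastB6, PwkB6 and MolfB6 did not overlap here, whereas all crosses overlapped when mt-Atp6 was taken alone.

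**Figure D5:**
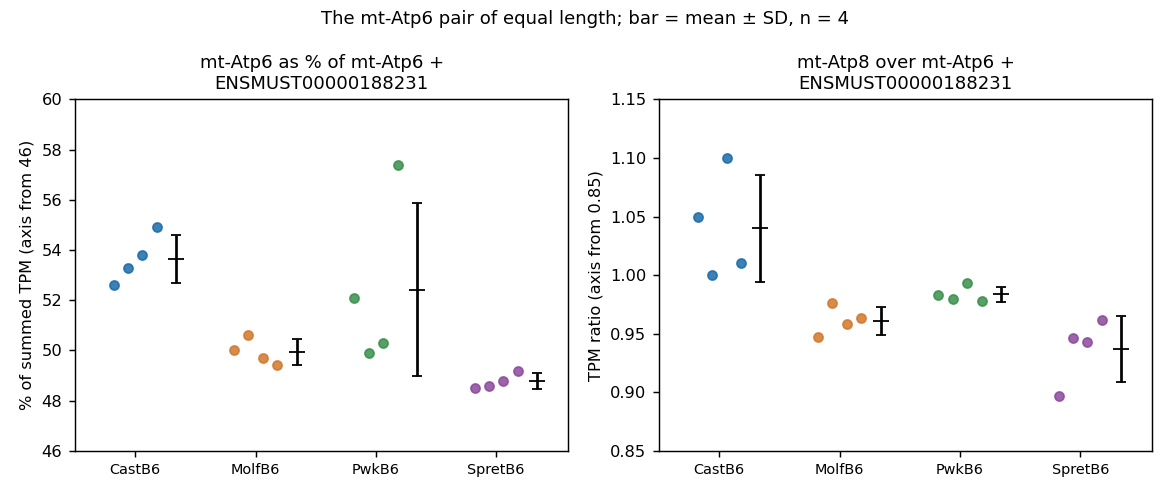
Left, mt-Atp6 as percent of the summed TPM of mt-Atp6 and ENSMUST00000188231, and right, mt-Atp8 over that sum, 1 point per library, with mean ± SD per cross (n = 4); the axes do not start at 0. SpretB6 lies lowest on the left (48.5% to 49.2%), and the PwkB6 points on the right span only 0.978 to 0.993.

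The other messages of the mitochondrial genome are the 7 of complex I, NADH dehydrogenase, which feeds electrons in ahead of complex III. They were identified as ND1, ND2, ND3, ND4L, ND4, ND5 and ND6 by lengths equal to 1 mitochondrial gene each. In the joint test and in each of the 6 pairs, edgeR called 0 of 7. Of all tested transcripts it called 9.73% in the joint test and 1.2% to 6.05% in the pairs. With 7 messages, 0 calls is close to what these shares give. ND4 in PwkB6 over SpretB6 came nearest, at a log2 fold change of 0.56 ± 0.20 (SE, with an edgeR adjusted p of 0.135). In CastB6 over SpretB6 the median log2 fold change was 0.42 for the 6 members and 0.15 for these 7. Of these 7, 6 were positive in that pair, as were 27122 of the 56721 tested transcripts. ND4 (0.46) and ND4L (0.40) had an unadjusted edgeR p below 0.05, as did 18.4% of all tested transcripts. In MolfB6 over SpretB6 the medians were 0.33 for the 6 members and 0.22 for these 7.

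Levels of the members moved together over the 16 libraries to different degrees. As a description over libraries that share crosses and depth, Pearson r of log2 CPM was 0.886 for mt-Co1 with mt-Atp6, 0.742 with mt-Cytb and 0.712 with mt-Co3. The r of mt-Co2 was -0.355 with mt-Co1, -0.357 with mt-Co3, -0.231 with mt-Atp8, -0.155 with mt-Atp6 and 0.0586 with mt-Cytb. How reads of mt-Co2 divided with other transcripts bear on these values was not tested. The complex I messages had r with mt-Co1 from 0.051 (ND4) to 0.887 (ND1). Among transcripts other than the 6 members, ND4L was the nearest to mt-Cytb, with r of 0.93, against 0.932 for mt-Cytb with mt-Atp6, and ENSMUST00000188231.2 was the nearest to mt-Co1, with r of 0.968. Next nearest to mt-Co1 was ENSMUST00000187117.2 of 492 bases, with r of 0.961 and a mean of 3415 TPM. Whether it shares reads with mt-Co1 was not tested. The nearest transcript outside the 6 to mt-Atp6 and mt-Atp8 was ENSMUST00000040284.6 of 979 bases, with r of 0.942 and 0.958. Outside the 6, the nearest to mt-Co3 was ENSMUST00000099703.5, with r of 0.89. For mt-Co2 it was ENSMUST00000236484.2, with a lower r of 0.825. These neighbours were picked for their r from a list of 9466 transcripts, with the members set aside. Picking the highest raises r, and by how much was not tested.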

How the data were processed

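Bulk RNA-seq of 16 libraries was used, grouped into 4 crosses by their titles. Per the submitters' processing notes, Salmon, DESeq2 and mm10 were used. For versions, transcript set and strand, the sources used here give nothing. Per the file headers, the deposited tables hold full and effective length in bases, TPM, and estimated counts per transcript.

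Here the estimated counts were rounded, filtered with filterByExpr (minimum count 10, minimum total 15, leaving 56721 transcripts), scaled by TMM and tested with edgeR 4.0.16 (R 4.3.3) in 1 quasi-likelihood fit over all libraries, with Benjamini-Hochberg adjustment over all tested transcripts and a threshold of 0.05. Intervals are 95% from the t distribution. Log2 CPM used a prior count of 2. Log2 TPM ratios and the share of counts were tested by exact permutation. DESeq2 1.42.0 and limma voom (limma 3.58.1) were alternatives. An estimate within 0.001 of a whole number was taken as whole. Names were taken for the 6 members, from the rule that defines them, and for the 7 complex I messages by length. Named neighbours are, for each member, the 3 transcripts outside the 6 members with the highest Pearson r of log2 CPM, among tested ones with a mean of at least 10 TPM. The edgeR and permutation code was tested on simulated data. Members and lists were chosen with earlier results of these data known. The uncertainty of dividing reads among transcripts is in none of the tests. No sequences were used, as the reference here holds none.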

Additional observations from a re-analysis of the deposited data

How the results depend on the processing

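Of the counts of members called, 165 of 167 under the alternatives were 0 as reported. In CastB6 over SpretB6, DESeq2 called 1 and the fit of only these 2 crosses called 2, where they called 6256 and 3978 of all transcripts, against 3430 as reported. Of the 110 exact tests under alternatives, 106 stayed above the threshold. The ratio of mt-Cytb to mt-Co1 passed it on ranks (adjusted p = 0.0269), and leaving out 1 library gave 0.0129 (without PwkB6 3) to 0.111, with 0.0214 without CastB6 3. An alternative chosen after seeing the data summed mt-Atp6 with ENSMUST00000188231. The ratio of mt-Atp8 to that sum then had an exact permutation adjusted p of 9.36e-05 among crosses. The same values prompted that choice, and the adjustment covers only the 6 exact tests, so this p-value is no independent support. The cause was not tested.

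Fold changes turned sign in 19 of 864 alternatives, none past the threshold. The values as reported lay between -0.07 and 0.27. On the log2 scale, PwkB6 over SpretB6 for mt-Co1 was -0.036 under limma voom and -0.021 with the replicate block, and MolfB6 over SpretB6 for mt-Co2 was -0.073 with the replicate block. With 1 library left out, the ranges that crossed 0 were -0.155 to 0.021 (mt-Co1, CastB6 over MolfB6), -0.176 to 0.194, -0.127 to 0.262 and -0.071 to 0.254 (mt-Co1, mt-Atp8 and mt-Atp6, PwkB6 over SpretB6), -0.05 to 0.129 and -0.02 to 0.43 (mt-Co2 and mt-Co3, MolfB6 over SpretB6), -0.025 to 0.248 and -0.128 to 0.052 (mt-Co3, CastB6 over PwkB6 and over SpretB6) and -0.135 to 0.108 (mt-Cytb, MolfB6 over PwkB6).

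Replicate numbers showed no pairing of the libraries over all tested transcripts. Deviations of same-numbered libraries of different crosses correlated at -0.0666 to 0.133, with 1 of 21 over 0.1. Differently numbered ones correlated at -0.195 to 0.219, with 5 of 75 over 0.1. A pairing that acts on few transcripts would not show in these values. The replicate block still gave 0 members called in each comparison, and 3581 calls over all transcripts in the joint test, against 5519. Over all transcripts DESeq2 called more than edgeR, with 11022 against 5519 in the joint test and 2459 against 682 for MolfB6 over PwkB6. MolfB6 2 alone carries its number, so the block leaves it without weight. Each member had at least 8937 estimated counts in a library, and whether depth limits these tests was not tested.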

Other observations

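PwkB6 6 lay at the end of the range for several values of the mitochondrial messages, picked after the values were seen. Among the 16 libraries it had the lowest TPM of mt-Co1 (10669) and the lowest share of estimated counts in the 6 members (2.42%). It had the highest TPM of mt-Co2 (1202), ND4 (4268) and ND5 (2571), where the other 15 libraries reached at most 2413 TPM for ND4 and 1855 TPM for ND5. Its ND1 level, 8179 TPM, lay within the range of the other libraries. Its TMM factor of 1.19 was the highest of the 16, and it had the most transcripts with reads, 67901. Dixon's test flagged no library in the 52 groups of 4 examined, and with 4 values it finds only wide gaps. Those groups held the TPM of the 6 members, their ratios, their share of counts and the split of the mt-Atp6 pair. ND4, ND5, the TMM factor and the number of transcripts with reads were not put to this test. Other libraries also lay at the end of several ranges. PwkB6 5 had the highest TPM of mt-Atp8, mt-Atp6, mt-Cytb, ND1 and ND2. MolfB6 6 had the highest of mt-Co1 and ND6 and the lowest of ND3. Without PwkB6 6, edgeR called 0 of the 6 members in each comparison. Of all transcripts it then called 615 to 4301 in the pairs and 6083 in the joint test.

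By highest over lowest TPM, ND3 and ND6 had the widest ranges of the 13 messages of the mitochondrial genome, while by coefficient of variation over the 16 libraries ND6 (40%) and ND4 (35.1%) stood above ND3 (32.1%). ND6 spanned 143 to 495 TPM, a 3.46-fold range over the 16 libraries, and ND3 spanned 1059 to 3750 TPM, a 3.54-fold range. Among the 6 members the widest range was that of mt-Co2, 2.72-fold, and the narrowest that of mt-Atp6, 1.65-fold.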
